A study of Caenorhabditis elegans with 24 samples.

Results

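The yolk protein genes of Caenorhabditis elegans, vit-1, vit-2, vit-3, vit-4, vit-5 and vit-6, are described here across 2 strains and 4 RNAi treatments. They were taken from the deposited table of all genes by their symbols, and all 6 of the 6 listed genes were found among 16927 genes. The list was chosen with earlier results of these data known. RNA of whole worms was sequenced after polyA enrichment in 24 libraries, 3 for each of 8 groups. The strains were VC3201, labelled as an atfs-1 mutant, and N2, the wild type. Each strain was fed bacteria for cco-1 RNAi (50% cco-1 and 50% control), for elt-2 RNAi (50% elt-2 and 50% control), for both RNAi (50% of each) or for control RNAi alone. The labels give these shares, whereas the key to the deposited table gives elt-2 RNAi as 25%. Feeding began at the L1 larval stage and lasted 2.5 days at 20 °C, until the L4 or young adult stage. Control RNAi was the empty vector. All groups were fed RNAi bacteria, and the labels do not say whether the replicates were separate cultures, so p-values measure the spread between these libraries only.

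Vitellogenins are lipid-carrying yolk precursors. In C. elegans they are made in the intestine of adult hermaphrodites, secreted, and taken up by growing oocytes through the receptor RME-2. The genes vit-1 to vit-5 encode large yolk polypeptides, and vit-6 encodes the precursor of the smaller ones. ELT-2 is the main GATA transcription factor of the intestine, the product of cco-1 belongs to cytochrome c oxidase, in the respiratory chain, and ATFS-1 switches on genes of the mitochondrial unfolded protein response.

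In the WBcel235 annotation all 6 are protein-coding genes. Of these, 5 lie on the X chromosome: vit-1 (WBGene00006925) at 7727889 to 7733168, vit-2 (WBGene00006926) at 5101042 to 5106169, vit-3 (WBGene00006927) at 3567355 to 3572549, vit-4 (WBGene00006928) at 3558769 to 3563965 and vit-5 (WBGene00006929) at 3403471 to 3408603. The remaining gene, vit-6 (WBGene00006930), lies on chromosome IV at 8261157 to 8266459. The genes vit-3 and vit-4 are on the minus strand, 3389 bases apart with 0 annotated genes wholly between them, and the other members are on the plus strand. The members vit-1, vit-2 and vit-6 have 5 exons each, and vit-3, vit-4 and vit-5 have 6. Exon lengths are alike, between 4870 bases for vit-5 and 5088 bases for vit-1. The pair vit-1 and vit-2, and the trio vit-3, vit-4 and vit-5, are close copies of each other, so reads of near-identical stretches could be assigned to the wrong copy, and values within each set are uncertain to that extent. Another annotated gene overlaps vit-2, vit-3 and vit-4 in each case, on the other strand. None of these 3 genes has a row in the table, and the strand setting of the counting is not given in these sources.

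Levels are given in CPM, the reads of a gene relative to all reads of its library. They were deposited after quantile normalization, which gives the gene at each rank the same value in every library. Rank 1 was 22698 to 22701 CPM in all 24 libraries, rank 2 was 19459 to 19462 CPM and rank 3 was 11961 or 11962 CPM. Every value is thus set by its rank, and steps between neighbouring ranks are large only near the top, 0.702 on the log2 scale between ranks 2 and 3 and 0.0431 between rank 10 and the next. For a yolk gene among the 10 top-ranked genes the spread between replicates is therefore not an error. On control RNAi this held for 5 members in VC3201 and for all 6 in N2. Fold changes against those groups are changes from values fixed by these ranks, called the ceiling below. A gene under rank 1 could still have risen in rank. A change that leaves the rank as it was cannot be seen.

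The targeted genes followed their labels. Transcripts of atfs-1 stood at 20 to 29.3 CPM in the 12 VC3201 libraries, against 71 to 85.5 CPM in the 12 N2 libraries. On cco-1 RNAi, cco-1 stood at 112 to 135 CPM in VC3201, against 333 to 354 CPM on control RNAi, and at 124 to 134 CPM in N2, against 267 to 333 CPM on control RNAi. The level of elt-2 fell less with elt-2 RNAi. It was 6.52, 8.84 and 16 CPM in VC3201, against 16.5 to 17.7 CPM on control RNAi, and 9.85 to 11.6 CPM in N2, against 16 to 19.2 CPM on control RNAi. Both falls passed limma's test (VC3201, log2 fold change -0.73, adjusted p = 0.00196; N2, -0.68, adjusted p = 0.00845). On both RNAi cco-1 stood lower than on cco-1 RNAi alone, at 64 to 71.2 CPM in VC3201 and 66 to 76.8 CPM in N2. With elt-2 RNAi alone cco-1 was also below control, at 262 to 273 CPM in VC3201 and 214 to 262 CPM in N2. The single and joint treatments thus did not lower cco-1 alike. Differences below are log2 fold changes of log2(CPM + 1), which understate the change of low genes. They were fitted by limma for 14561 genes, and a change was called at an adjusted p (Benjamini-Hochberg) under 0.05. The fit shares 1 error per gene over all 24 libraries, including groups whose spread the top ranks hold down. Intervals and p-values of the yolk genes can thus be too small in every comparison.

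**Figure D1:**
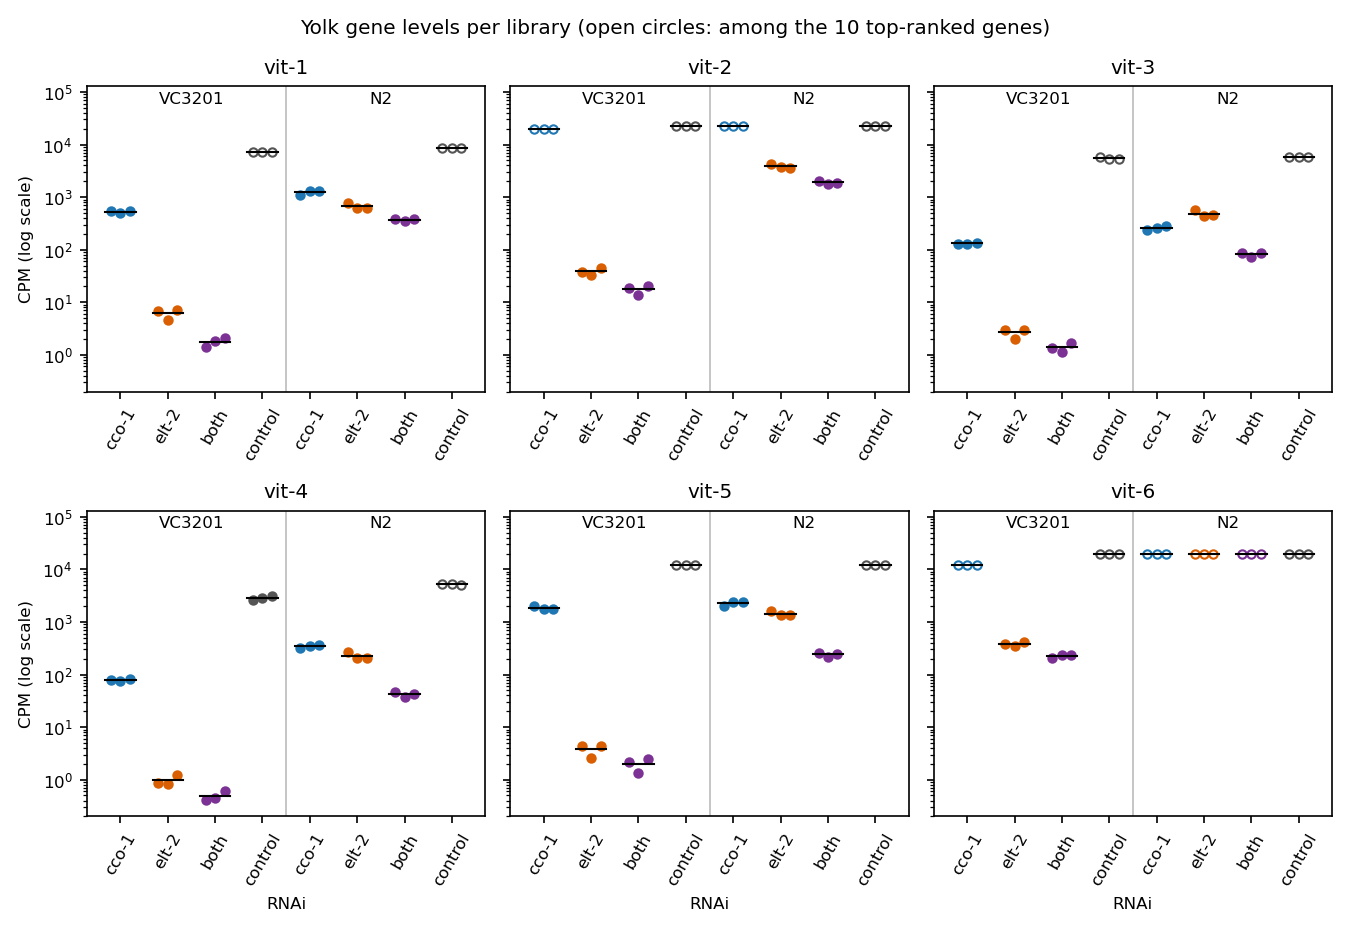
CPM of each yolk gene (log axis) in each library by strain and RNAi. Points are libraries, bars are the means of 3, and open circles are values among the 10 top-ranked genes, where steps between ranks are large. In VC3201 the elt-2 and both RNAi libraries sit lowest for all 6 genes, and in N2 vit-6 stays at 19459 to 19461 CPM throughout.

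On control RNAi the 6 genes were among the most abundant transcripts of both strains. Together they held 6.96% ± 0.0197 of all CPM in VC3201 and 7.37% ± 0.0158 in N2 (SD, n = 3 each). The gene vit-2 was at rank 1 and vit-6 at rank 2 in all libraries of both groups, and vit-5 was at rank 3. The gene vit-1 was at rank 5 in the 3 VC3201 libraries and at rank 4 in the 3 N2 libraries. For vit-3 the ranks were 6, 7 and 7 in VC3201 and 6 in each N2 library.

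On control RNAi vit-4 differed between the strains. It stood at 2665, 2834 and 3094 CPM in VC3201 (ranks 28 to 37), against 5261, 5261 and 4990 CPM in N2 (ranks 7 and 8). The groups did not overlap, and vit-4 was lower in VC3201 by a ratio of means of 0.554 (log2 fold change -0.85 ± 0.0874 SE, adjusted p = 5.02e-09). The test also called vit-1 lower (-0.27, adjusted p = 0.0317), which is the step between ranks 4 and 5 and nothing finer. In all, 2 of 6 members were lower and 0 higher, where 22.6% of all genes tested were lower and 26.7% higher. Without any 1 of the 6 libraries the call of vit-1 was lost (adjusted p = 0.0609 to 0.0636), which left 1 of 6.

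With cco-1 RNAi the large yolk genes vit-1, vit-3, vit-4 and vit-5 were lower in both strains, while vit-2 and vit-6 kept the top ranks. In VC3201 6 of 6 members were called lower and 0 higher, where 37.1% of all genes were lower and 26.9% higher. In N2 4 of 6 were lower and 0 higher, where 16.4% of all genes were lower and 17.5% higher. The median change of the members was -3.22 in VC3201 and -2.6 in N2, beside medians over all genes of -0.0608 and 0.00787.

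The largest falls with cco-1 RNAi were in vit-3 and vit-4. The gene vit-3 stood at 130, 129 and 135 CPM in VC3201, against 5815, 5261 and 5261 CPM on control RNAi, and at 233, 259 and 281 CPM in N2, against 5815 CPM in each control library. These are log2 fold changes of -5.36 (adjusted p = 2.02e-26) in VC3201 and -4.50 (adjusted p = 7.79e-24) in N2. For vit-4 the values were 80, 73.8 and 81 CPM in VC3201, against 2665 to 3094 CPM on control RNAi (36.6-fold lower, -5.17, adjusted p = 1.63e-26). Of the 6 members, vit-4 is the 1 whose VC3201 change involves no value among the top 10 ranks. In N2 vit-4 stood at 315, 355 and 371 CPM on cco-1 RNAi, against 4990 to 5261 CPM on control (14.9-fold lower, -3.90, adjusted p = 1.06e-23). In none of these 4 comparisons did the libraries overlap, and the share of all genes without overlap is not given here.

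The falls of vit-1 and vit-5 were smaller. On cco-1 RNAi vit-1 was at 547, 503 and 547 CPM in VC3201, 13.5-fold below control RNAi, and at 1099, 1317 and 1317 CPM in N2, 6.96-fold below control RNAi. The gene vit-5 was at 1997, 1787 and 1738 CPM in VC3201, 6.5-fold below control, and at 1979, 2427 and 2408 CPM in N2, 5.27-fold below control. Both genes left the top 10 ranks in all 6 cco-1 RNAi libraries.

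The genes vit-2 and vit-6 each moved by 1 rank or none. In VC3201, vit-2 was at rank 2 on cco-1 RNAi in each library, against rank 1 on control, and vit-6 at rank 3, against rank 2 on control. The calls of vit-2 (-0.22, adjusted p = 0.0451) and vit-6 (-0.70, adjusted p = 2.08e-10) in VC3201 rest on these single steps, and that of vit-2 was lost without any 1 of the 6 libraries (adjusted p = 0.0774 to 0.0837). In N2, vit-2 was at rank 1 and vit-6 at rank 2 on control and on cco-1 RNAi. A change of these genes that left the rank as it was cannot be seen.

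**Figure D2:**
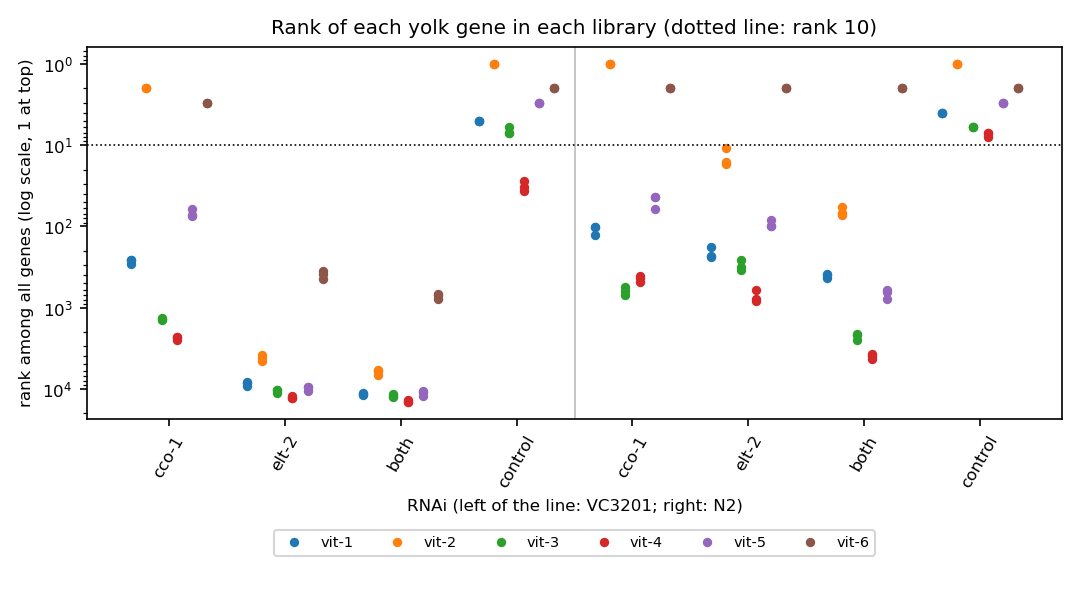
Rank of each yolk gene among 16927 genes in each library (log axis, rank 1 at the top), by strain and RNAi. The dotted line is rank 10, above which steps between ranks are large. In the 3 VC3201 both RNAi libraries vit-4 ranks 13733 to 14451, and in the 3 N2 both RNAi libraries 3715 to 4250.

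RNAi of elt-2 lowered the yolk genes in both strains, and far more in VC3201. In VC3201 6 of 6 members were lower and 0 higher, where 49.4% of all genes were lower and 36.4% higher. In N2 5 of 6 were lower and 0 higher, where 21.8% of all genes were lower and 26.2% higher. Together the 6 genes held 0.0436% ± 0.00468 of all CPM in VC3201 on elt-2 RNAi, against 6.96% on control, and 2.62% ± 0.0712 in N2 on elt-2 RNAi, against 7.37% on control (SD, n = 3 each).

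In VC3201 on elt-2 RNAi, vit-5 stood at 4.39, 2.6 and 4.42 CPM, against 11962 CPM in each control library, which was 3145-fold lower (-11.31, adjusted p = 7.05e-33). The gene vit-4 stood at 0.854, 0.828 and 1.22 CPM, against 2665 to 3094 CPM on control, which was 2962-fold lower (-10.51, adjusted p = 2.11e-35). At this depth these vit-4 values were 28 to 42 reads. The remaining large yolk genes fell in the same libraries, vit-1 to 6.7, 4.58 and 7.26 CPM (1162-fold lower than control) and vit-3 to 2.98, 2.02 and 3.02 CPM (2034-fold lower). The gene vit-2, the most abundant gene of the control libraries, stood at 37.9, 33 and 44.9 CPM, 588-fold lower than control. The least affected member was vit-6, at 386, 345 and 420 CPM on elt-2 RNAi, against 19461 or 19462 CPM on control (50.7-fold lower, -5.67, adjusted p = 1.58e-32). No elt-2 RNAi library of VC3201 overlapped a control library for any member. For members at the ceiling on control RNAi this says nothing beyond the change of rank. The share of all genes without overlap is not given here.

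In N2 the same treatment left the yolk genes abundant. The gene vit-6 was at rank 2 in all 3 elt-2 RNAi libraries, as on control. The gene vit-2 stood at 4335, 3692 and 3636 CPM (ranks 11 to 17), against rank 1 on control, 5.84-fold lower (-2.55, adjusted p = 2.31e-19). The gene vit-4 fell most, to 264, 203 and 210 CPM, 22.9-fold below control (-4.52, adjusted p = 3.34e-26). The other large yolk genes were lower by 8.32-fold (vit-5), 12-fold (vit-3) and 13-fold (vit-1).

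Both RNAi together gave the lowest mean of the 4 treatments for all 6 members in VC3201 and for the 5 large yolk genes in N2, where vit-6 stayed at rank 2. Against control RNAi, 6 of 6 members were lower in VC3201 (48.8% of all genes lower and 38.7% higher) and 5 of 6 in N2 (26.8% of all genes lower and 27.2% higher), with 0 higher in either. In VC3201 the 6 genes held 0.0251% ± 0.00146 of all CPM, and in N2 2.21% ± 0.0195 (SD, n = 3 each), of which vit-6 made up most in both strains. In VC3201 vit-5 stood at 2.17, 1.33 and 2.47 CPM on both RNAi, 6009-fold lower than control (-11.99, adjusted p = 1.77e-33), and vit-4 at 0.419, 0.444 and 0.613 CPM, 5821-fold lower (-10.91, adjusted p = 1.15e-35). In N2 vit-4 stood at 46.2, 37.6 and 41.9 CPM, 123-fold lower than control (-6.92, adjusted p = 1.58e-30).

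Against elt-2 RNAi alone, no member's value in VC3201 and only those of vit-6 in N2 are among the top 10 ranks. All 6 members were lower in VC3201 (17.1% of all genes lower and 14.1% higher) and 5 of 6 in N2 (8.9% of all genes lower and 10.3% higher), with 0 higher in either strain. In N2 vit-3 stood at 85.6, 74 and 88.1 CPM on both RNAi, against 561, 432 and 463 CPM on elt-2 RNAi (5.88-fold lower, -2.54, adjusted p = 1.14e-17). The genes vit-5 and vit-4 fell alike in N2, by 5.96-fold and 5.39-fold, vit-2 by 2.04-fold and vit-1 by 1.78-fold. In VC3201 vit-1 stood at 1.42, 1.83 and 2.1 CPM on both RNAi, against 6.7, 4.58 and 7.26 CPM on elt-2 RNAi (3.46-fold lower, -1.35, adjusted p = 4.19e-11), and the other members were 1.69-fold to 2.19-fold lower. The call of vit-4 in VC3201 (0.419, 0.444 and 0.613 CPM, against 0.854, 0.828 and 1.22 CPM) was lost with a pseudocount of 5 (adjusted p = 0.259).

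Against cco-1 RNAi alone, all 6 members were lower on both RNAi in VC3201 (44.6% of all genes lower and 36.5% higher) and 5 of 6 in N2 (16.5% of all genes lower and 17.6% higher). In VC3201 the gap was 925-fold for vit-5, 298-fold for vit-1, 159-fold for vit-4 and 94.4-fold for vit-3. In N2 it was 9.42-fold for vit-5, 8.29-fold for vit-4, 3.32-fold for vit-1 and 3.12-fold for vit-3. These 4 genes are outside the top 10 ranks in all libraries of both comparisons, and vit-2, at the ceiling on cco-1 RNAi, was lower by 1105-fold in VC3201 and 11.9-fold in N2.

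**Figure D3:**
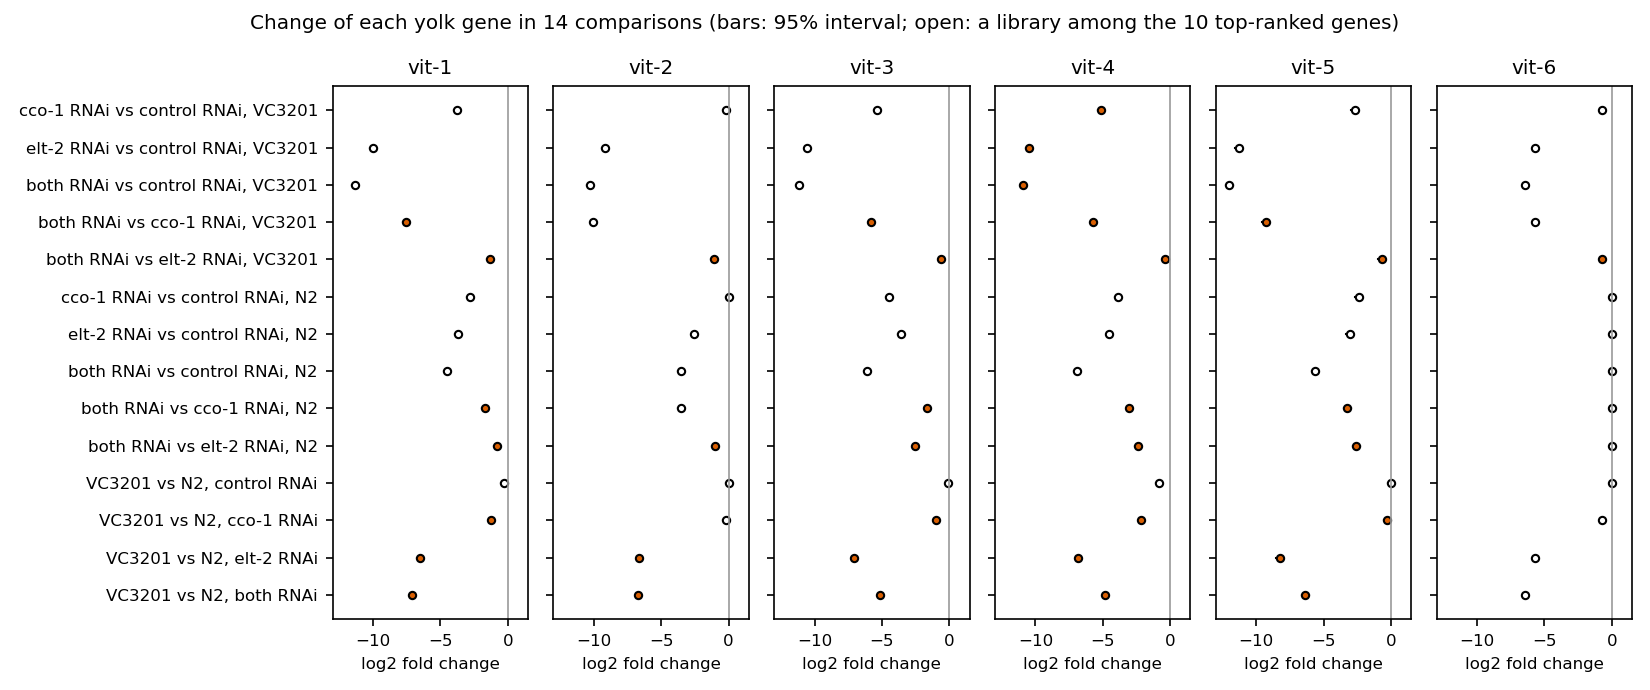
Log2 fold change of each yolk gene in 14 comparisons, with 95% intervals, which are often narrower than the points. Filled points compare libraries that are all outside the 10 top ranks, and open points involve at least 1 value among them. The error of each gene is shared over all 24 libraries. Groups at the top ranks, with almost no spread, thus also narrow the intervals of filled points. Of the 84 values 73 are called lower and 0 higher, and all 36 filled points are called lower. Across the 14 comparisons 8.9% to 49.4% of all genes were lower and 10.3% to 38.7% higher. The comparisons share groups, so the 84 values are not independent.

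The strains were also compared within each treatment. On elt-2 RNAi 6 of 6 members were lower in VC3201 than in N2, where 44.8% of all genes were lower and 33.1% higher, and 5 of them involve no value among the top 10 ranks. The gene vit-5 stood at 4.39, 2.6 and 4.42 CPM in VC3201, against 1590, 1361 and 1361 CPM in N2 (378-fold lower, -8.25, adjusted p = 8.81e-29). The gap was 234-fold for vit-4, 181-fold for vit-3, 108-fold for vit-1, 101-fold for vit-2 and 50.7-fold for vit-6. The level of elt-2 itself did not differ detectably between these groups, at 10.4 ± 4.93 CPM in VC3201 and 10.5 ± 0.958 CPM in N2 (SD, n = 3 each; log2 fold change -0.09, 95% interval -0.51 to 0.34, adjusted p = 0.719). The VC3201 library with the highest elt-2 level, replicate 3 at 16 CPM, also had the highest of the 3 values for each of the 6 members. For vit-1 it had 7.26 CPM, where the other 2 had 6.7 and 4.58 CPM. For vit-3 (3.02 against 2.98 CPM) and vit-5 (4.42 against 4.39 CPM) replicates 3 and 1 were nearly equal. The other 2 libraries ran the opposite way. Replicate 1, with less elt-2 (6.52 CPM) than replicate 2 (8.84 CPM), had the higher value for each of the 6 members. Without replicate 3 of VC3201 the strain differences lay between -8.35 for vit-5 and -5.73 for vit-6.

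On both RNAi 6 of 6 were again lower in VC3201 (44.2% of all genes lower and 36.2% higher), by 59.3-fold for vit-3 up to 210-fold for vit-1. On cco-1 RNAi 5 of 6 were lower in VC3201 (29.2% of all genes lower and 26.6% higher), with much smaller gaps. The gene vit-4 stood at 80, 73.8 and 81 CPM in VC3201, against 315, 355 and 371 CPM in N2 (4.43-fold lower, -2.13, adjusted p = 7.57e-18), vit-1 was 2.34-fold lower and vit-3 1.96-fold lower. The libraries of vit-5 overlapped, at 1738 to 1997 CPM in VC3201 and 1979 to 2427 CPM in N2, and its call (-0.30, adjusted p = 0.0400) was lost without any 1 of 4 libraries (N2 replicate 2 or 3, VC3201 replicate 2 or 3).

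The test of the difference between strains asks whether an RNAi effect was unlike in VC3201 and N2. For elt-2 RNAi it was below 0 for 6 of 6 members (42.1% of all genes below 0 and 30.7% above), between -8.25 for vit-5 and -5.67 for vit-6. For cco-1 RNAi it was below 0 for 4 of 6 (23.2% of all genes below 0 and 16.8% above), with -1.28 for vit-4, -0.95 for vit-1, -0.87 for vit-3 and -0.70 for vit-6. Each of these differences includes control libraries at the ceiling, for vit-4 those of N2 alone. The vit-6 value for cco-1 RNAi is the single step between ranks 2 and 3 in VC3201, with N2 at rank 2 in both groups.

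A further test asked whether both RNAi together did less or more than the sum of their single effects, on the log2 scale. Its values differed in sign among the members. In VC3201 it was above 0 for 4 (21% of all genes above 0), at 4.78 for vit-4, 4.75 for vit-3, 2.40 for vit-1 and 2.02 for vit-5, and below 0 for 1, vit-2 at -0.87 (20.1% of all genes below 0). In N2 it was above 0 for 3 (7.09% of all genes), at 1.98 for vit-1, 1.96 for vit-3 and 1.5 for vit-4, and below 0 for vit-2 at -1.02 (5.95% of all genes). A value above 0 means that the joint fall was smaller than the sum of the single falls. On the log2(CPM + 1) scale no gene can fall by more than its control level. In VC3201 the sum of the single falls exceeded that level for these 4 genes, at 15.68 against a level of 11.48 for vit-4, 15.90 against 12.41 for vit-3, 13.74 against 12.81 for vit-1 and 14.01 against 13.55 for vit-5, so the scale fixes these 4 values above 0. In N2 the sums were below the control level for each member. For vit-2 the cco-1 RNAi effect within these values is set by rank. In N2 it was at rank 1 on control and cco-1 RNAi, and in VC3201 it moved from rank 1 to rank 2. A hidden change of vit-2 with cco-1 RNAi would move its values, so their sign below 0 is not settled. The vit-4 value of VC3201 is the 1 joint effect with every library outside the top 10 ranks.

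Compared per kilobase of exon, the order of the members changed with the treatment. On control RNAi it was vit-2, vit-6, vit-5, vit-1, vit-3, vit-4 in both strains, each gene above the next in every library. With elt-2 RNAi vit-6 came first in both strains. The ratio of vit-6 to vit-2, in CPM per kb, was 9.73 ± 0.552 on elt-2 RNAi and 13 ± 3.28 on both RNAi in VC3201, and 4.91 ± 0.464 and 9.97 ± 0.739 in the same groups of N2, against 0.835 on control RNAi in either strain (SD, n = 3 each). The control value is the ratio of ranks 1 and 2 corrected for length. In the N2 values vit-6 is fixed at rank 2.

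The neighbours vit-3 and vit-4 changed places in 1 group. The ratio of vit-3 to vit-4, in CPM per kb, was 0.743 ± 0.0139 in N2 on cco-1 RNAi, 2.16 ± 0.0475 on elt-2 RNAi and 1.98 ± 0.126 on both RNAi, against 1.13 on control, where both are at the ceiling (n = 3 each). In VC3201 vit-3 stayed above vit-4, with ratios of 1.68 ± 0.0639 on cco-1 RNAi, 2.81 ± 0.599 on elt-2 RNAi and 2.86 ± 0.333 on both RNAi, against 1.92 ± 0.246 on control. The ratio of vit-5 to vit-4 was 23.9 ± 1.87 in VC3201 on cco-1 RNAi and lay between 4.02 and 4.25 in the other VC3201 groups, and between 5.83 and 6.62 in the 3 RNAi groups of N2, where control had 2.35. In VC3201 on elt-2 RNAi the range of vit-5 overlapped those of vit-1 and vit-3, but within each of the 3 libraries vit-1 was above vit-5 and vit-5 above vit-3. On both RNAi vit-1 was likewise above vit-3 in each of the 3 libraries, while vit-5 was above vit-1 in 2 and below it in 1.

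Of 10 transcription factor and signalling genes described as acting on yolk gene transcription, elt-2 RNAi lowered 4 and raised 4 in VC3201, and lowered 4 and raised 3 in N2. Of all genes, 49.4% were lower and 36.4% higher in VC3201, and 21.8% lower and 26.2% higher in N2. The 4 lowered regulators include elt-2, the target of the RNAi, in each strain. The homeobox gene ceh-60, known to activate yolk genes, stood at 0.692, 0.608 and 0.929 CPM in VC3201 on elt-2 RNAi, against 9.47 to 10.9 CPM on control (-2.67, adjusted p = 7.34e-19), and at 4.98, 3.45 and 3.62 CPM in N2, against 9.38 to 11.6 CPM on control (-1.21, adjusted p = 2.57e-10). Its homeobox partner unc-62 fell less, by 0.95 in VC3201 and by 0.39 in N2 on the log2 scale. The zinc finger gene pqm-1 rose 8.48-fold in VC3201, to 201, 209 and 224 CPM, and 3.07-fold in N2, to 86.9, 95.4 and 101 CPM. With cco-1 RNAi, which lowered 4 or more yolk genes in each strain, ceh-60 stood at 13.9 to 16.1 CPM in VC3201, higher than on control (0.52, adjusted p = 0.0002), and at 9.38 to 11.5 CPM in N2, overlapping its control.

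Among 11 genes of yolk particle assembly and uptake, dsc-4 moved most. It encodes the microsomal triglyceride transfer protein, which loads lipid onto lipoproteins. On elt-2 RNAi dsc-4 stood at 1.71, 2.1 and 1.92 CPM in VC3201, against 68.4, 80.1 and 75.8 CPM on control (39.2-fold lower, -4.70, adjusted p = 1.56e-26). In N2 the elt-2 RNAi libraries had 6.81, 6.59 and 5.6 CPM, against 87.5, 89.5 and 84 CPM on control (13.7-fold lower, -3.59, adjusted p = 4.3e-23). In N2 on both RNAi it was higher than on elt-2 RNAi, at 14, 13.9 and 11.5 CPM (0.95, adjusted p = 1.09e-08), whereas 5 of 6 yolk genes were lower in that comparison. On cco-1 RNAi it stood at 71.4 to 93.9 CPM in VC3201 and 87.1 to 94.9 CPM in N2, overlapping the control ranges.

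The yolk receptor gene rme-2, expressed in oocytes, was lower in VC3201 with each RNAi. It stood at 424, 485 and 424 CPM on cco-1 RNAi, at 294, 271 and 289 CPM on elt-2 RNAi and at 175, 192 and 178 CPM on both RNAi, against 624 to 651 CPM on control (log2 fold changes -0.53, -1.16 and -1.81, the highest adjusted p being 1.73e-09). In N2 it lay between 590 and 686 CPM in the 3 RNAi groups, against 607 to 664 CPM on control. As a whole, the assembly and uptake list had 4 lower and 6 higher genes with elt-2 RNAi in VC3201 (all genes 49.4% lower and 36.4% higher) and 1 lower and 5 higher in N2 (all genes 21.8% lower and 26.2% higher).

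Markers of stage and tissue moved in the same VC3201 libraries in which the yolk genes were lowest. With elt-2 RNAi in VC3201, 12 of 14 oocyte and eggshell genes were lower and 1 higher (median -0.99, all genes -0.179), and their summed level was 8767 to 9328 CPM, against 12268 to 13763 CPM on control. The oocyte gene oma-2 stood at 356 ± 12 CPM, against 922 ± 31.6 CPM, and the chitin synthase gene chs-1 at 92.8 ± 3.59 CPM, against 268 ± 13.5 CPM (SD, n = 3 each). In N2 0 of the 14 were lower with elt-2 RNAi and 6 were higher, where 21.8% of all genes were lower and 26.2% higher. All 8 molting genes were higher in VC3201 with elt-2 RNAi (median 2.18), summing to 393 to 446 CPM, against 73.4 to 77.2 CPM on control, while in N2 the sums were 198 to 239 CPM, against 209 to 234 CPM on control. Of 6 sperm genes tested out of 8 listed, 5 were higher in VC3201, and the sperm phosphatase gene gsp-3 stood at 251 ± 10.3 CPM, against 25.1 ± 3.34 CPM. All 6 germ line genes were lower (median -0.64), and 7 of 8 hypodermis genes were higher and 1 lower (median 2.24). Adult cuticle genes were higher in 3 of 4 cases and lower in 1, body wall muscle genes higher in 4 of 7 and lower in 2, pharynx genes higher in 4 of 5 and lower in 0, and neuron genes higher in 3 of 7 and lower in 1 (median -0.03). Over all genes, elt-2 RNAi in VC3201 had 36.4% higher and 49.4% lower. The part of these shifts in the yolk gene values was not tested.

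With cco-1 RNAi in VC3201, 13 of 14 oocyte and eggshell genes were lower (median -0.44), and 5 of 8 molting genes were higher and 2 lower (median 0.45), where 37.1% of all genes were lower and 26.9% higher. In N2 on cco-1 RNAi 2 of the 14 oocyte and eggshell genes were lower, with a median of 0, while 4 yolk genes fell. Of all genes, 16.4% were lower and 17.5% higher in that comparison. On control RNAi 6 of 8 molting genes were lower in VC3201 than in N2 (median -1.66). Of the 14 oocyte and eggshell genes 2 were lower and 5 higher, where 22.6% of all genes were lower and 26.7% higher.

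Intestine markers did not fall together. With elt-2 RNAi 6 of 14 were lower and 8 higher in VC3201 (all genes 49.4% and 36.4%). In N2 8 were lower and 5 higher (all genes 21.8% and 26.2%). The lowered markers include elt-2, the target of the RNAi, in each strain. The V-ATPase subunit gene vha-6 stood at 9.01 ± 1.22 CPM in VC3201, against 215 ± 23.1 CPM on control, and at 61.3 ± 4.08 CPM in N2, against 221 ± 7.91 CPM on control. The metallothionein gene mtl-2 was at or near the table's lowest value, 0.022 CPM, in both strains on elt-2 RNAi. The intermediate filament gene ifb-2 was higher in VC3201, at 349 ± 8.82 CPM, against 89.7 ± 4.16 CPM on control. The summed level of the list on elt-2 RNAi was 4335 to 4564 CPM in VC3201, against 6676 to 7705 CPM on control. In N2 it was 5340 to 5486 CPM, against 6359 to 6405 CPM on control. Most of each control sum was the listed gene asp-1, whose control values are at the ceiling. The mean of asp-1 on elt-2 RNAi in VC3201 was 1048 CPM, against 5265 CPM on control. This fall was larger than that of the sum, so the other listed genes together rose. In N2 its mean was 3483 CPM, against 4466 CPM on control, a fall about as large as that of the sum. In whole worms, a smaller share of intestine RNA and less yolk RNA within the intestine cannot be told apart.

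**Figure D4:**
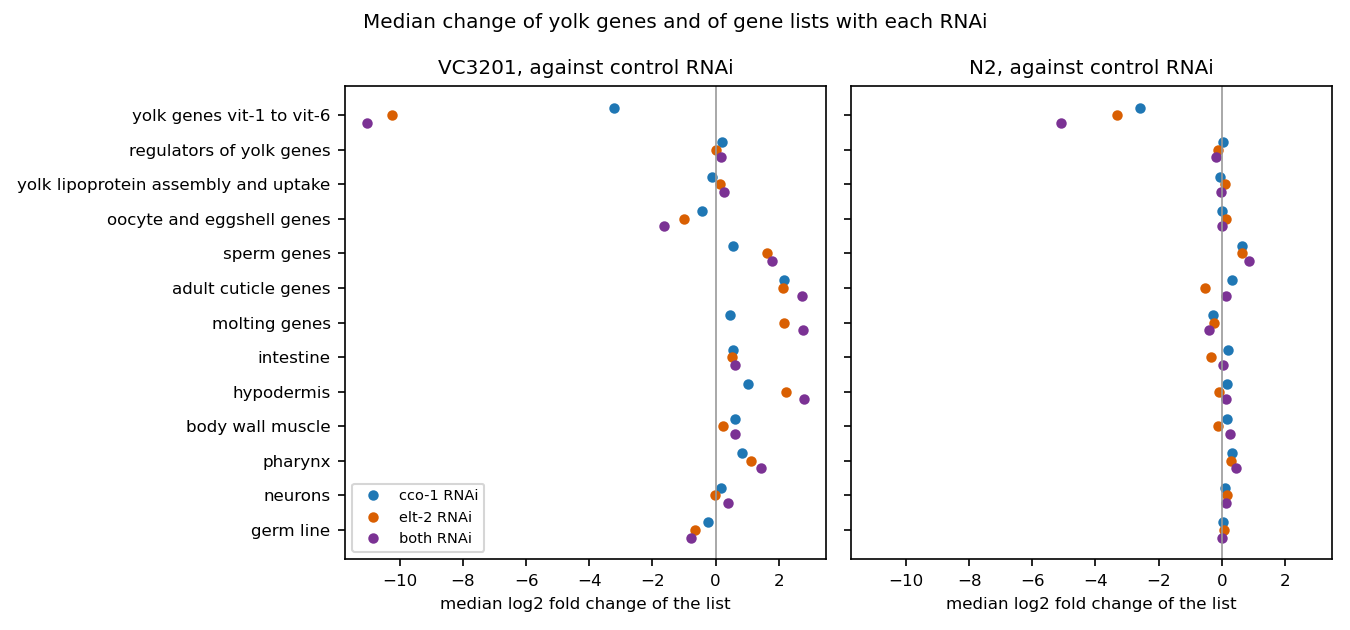
Median log2 fold change of the 6 yolk genes and of 12 gene lists for cco-1, elt-2 and both RNAi against control RNAi, in VC3201 (left) and N2 (right). The yolk genes have the lowest median in each of the 6 comparisons, and in VC3201 the oocyte and eggshell list lies below 0 and the molting and hypodermis lists above 0.

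The genes whose pattern was most like that of the yolk genes were ranked by Pearson's r between their log2(CPM + 1) and the mean over the 6 members, across the 24 libraries and 7791 genes. The closest were mnat-1 (r = 0.991), C41A3.1 (0.987), C53D5.5 (0.987), ruvb-1 (0.985) and hacd-1 (0.984). Their ranges were much narrower than those of the yolk genes. The gene mnat-1 stood at 10.1 ± 0.935 CPM in VC3201 on elt-2 RNAi, against 37.3 ± 1.48 CPM on control, and hacd-1 at 3.91 ± 0.253 CPM, against 63.7 ± 11 CPM (SD, n = 3 each). The 100th gene still had r = 0.965, and the 24 libraries fall into 8 groups with 2 groups far below the rest, which the r values share. Among the members themselves r ran between 0.857 for vit-6 and vit-4 and 0.993 for vit-4 and vit-3.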

How the data were processed

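The authors deposited 1 table with 24 columns of CPM, 3 per strain and RNAi group. Per the submitters' processing notes, reads were handled with STAR 2.73a and edgeR 3.24.3 on build WBcel235 (ce11). Neither the read counter nor its strand setting is given in the sources used here. In the deposited values each column sums to 1000373 CPM and the lowest value is 0.022 CPM, as after quantile normalization and addition of 0.5 reads to every gene. Library depth before that step was not analysed here. Where tied low values allow reads to be ranked back (54% to 67.1% of genes per library), 1 CPM equalled between 13.1 and 33.8 reads, so low values rest on more reads in the elt-2 and both RNAi libraries of VC3201. The authors also deposited log2 fold changes and p-values from Limma-Voom, per the key to the table, and a dependency score. Of these, the score and the log2 fold changes behind it for vit-2 and vit-6 are printed here, and the test results are from a new fit.

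The members and the gene lists were chosen with earlier results of these data known. All 6 members passed the filter, a group mean of 1 CPM or more in any group, which left 14561 genes. Values of log2(CPM + 1) were fitted with limma 3.58.1 in R 4.3.3, with 1 mean per group over all 24 libraries, eBayes with a trend, 2-sided tests and Benjamini-Hochberg adjustment within each of 18 comparisons. A gene counted as changed at an adjusted p under 0.05. Members in the top 10 ranks of a library were marked, since steps between ranks are large there. Always named were the members and targeted genes, up to 4 genes of each list with the smallest p in the comparison described, and the 5 genes with the highest r. Alternatives were pseudocounts of 0.5 and 5, no filter, a replicate block, a fit of only the groups compared, the quantile normalization partly undone, and leaving out each library. A count of members outside the top 10 ranks was added after seeing the data. Gene positions are from Ensembl release 115 (WBcel235). Replicates correlated at r = 0.995 to 0.9983 and differed by more than sampling noise (chi-square per gene 1.27 to 1.88), so each was counted.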

Additional observations from a re-analysis of the deposited data

Results flagged for a closer look

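The effect of elt-2 RNAi differed between VC3201 and N2 for all 6 members, by a test of the difference itself (limma, log2 scale): -6.28 for vit-1, -6.62 for vit-2, -6.95 for vit-3, -5.99 for vit-4, -8.25 for vit-5 and -5.67 for vit-6. The effect of cco-1 RNAi differed between the strains for 4 members, by -0.95 for vit-1, -0.87 for vit-3, -1.28 for vit-4 and -0.70 for vit-6. The vit-6 value is the step between ranks 2 and 3 in VC3201, with N2 at rank 2 in both groups. Each difference in this paragraph includes control libraries at the ceiling, for vit-4 those of N2 alone.

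The joint effect of both RNAi differed from the sum of the single effects. In VC3201 the difference was 2.40 for vit-1, -0.87 for vit-2, 4.75 for vit-3, 4.78 for vit-4 and 2.02 for vit-5. In N2 it was 1.98 for vit-1, -1.02 for vit-2, 1.96 for vit-3 and 1.5 for vit-4. All of these differences except that of vit-4 in VC3201 involve at least 1 library with the gene in the top 10 ranks, where steps between ranks are large. For vit-1, vit-3, vit-4 and vit-5 in VC3201 the sum of the single falls exceeds the control level on the log2(CPM + 1) scale, so the value is above 0 by construction. For vit-2 the cco-1 RNAi effect is set by the top ranks in both strains, so the sign of its values is not settled.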

How the results depend on the processing

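Of 108 member results, 108 kept their direction and side of the threshold when the quantile normalization was partly undone. The number was 107 with a replicate block, 107 with no filter, 107 with a pseudocount of 0.5 and 106 with a pseudocount of 5. No called value changed sign. The partial undoing turned only tied low values back into reads. Higher values, among them all those in the top 10 ranks, were only rescaled per library, so it could not test the ceiling. The uncalled joint effect on vit-6 in VC3201 lay between -0.12 and 0.02 over the alternatives. The replicate block added 1 call, vit-2 in VC3201 against N2 on cco-1 RNAi (-0.22, adjusted p = 0.0325, against 0.0511 without it), and moved no count of members by over 1.5 times. Replicate numbers did not pair the libraries (84 same-numbered pairs, r = -0.104 to 0.15, 7 above 0.1). Leaving out any 1 of 6 libraries left 1 of 6 members lower in VC3201 than N2 on control RNAi, in place of 2, since vit-1 lost its call (adjusted p = 0.0609 to 0.0636). The call of vit-2 on cco-1 RNAi in VC3201 was lost without any 1 of the 6 libraries compared (adjusted p = 0.0774 to 0.0837) and with no filter (0.0519), and that of vit-5 on cco-1 RNAi between strains with a pseudocount of 0.5 (0.0661) and without any 1 of 4 libraries (0.0958 to 0.136). A pseudocount of 5 shrank both RNAi against elt-2 RNAi in VC3201 to -0.71 for vit-1, -0.26 for vit-3, -0.12 for vit-4 and -0.33 for vit-5, and vit-4 between strains on both RNAi to -3.09.

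Counting only members outside the top 10 ranks in every library compared, the number lower than control RNAi was 1 (vit-4) for each RNAi in VC3201 and 0 for each in N2, and 0 in VC3201 against N2 on control RNAi. It was 0 for both tests of the difference between strains. For the joint effect it was 1 above 0 and 0 below in VC3201, and 0 in either direction in N2. By its construction this count leaves out members at the ceiling. The median of all genes was -0.179 for elt-2 and -0.157 for both RNAi against control in VC3201 (-0.00842 and 0.0452 partly undone), and -0.13 for the difference between strains on elt-2 RNAi, so changes of that size are within the shift of all genes.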

Other observations

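The authors' deposited table gives each gene dependency scores, quotients of their own log2 fold changes. The authors' deposited table lists an ELT-2 dependency in N2 of 91569 for vit-2 and values of 0.365 to 1.35 for vit-1, vit-3, vit-4 and vit-5. The divisor for vit-2, its log2 fold change with cco-1 RNAi in N2, is -3.9e-05 in the authors' deposited table, the difference between 2 groups at rank 1. For vit-6 the authors' deposited table gives a score of 0.855, the quotient of -3.34e-05 and -3.9e-05, both differences between groups at rank 2. The ATFS-1 dependency in the authors' deposited table is 5691 for vit-2 and 17986 for vit-6, both with N2 values at the ceiling, and 1.12 to 1.34 for the other 4 members.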
